A study of Mus musculus with 16 samples.

Results

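Transcripts of megakaryocytes, the marrow cells that make platelets, were measured in the cortical bone of hindlimb unloaded and control mice. The genes are Pf4, Ppbp, Itga2b, Gp1bb, Gp9, Vwf, Gp6, Treml1 and Tubb1, taken by symbol from the first column of the RNAseq data, whatever their values. Of these 9 genes, 8 are listed among the 36829 features of each mouse, and all 8 were among the 16973 features tested. Gp9 was not analysed here. The mice were female C57Bl/6 of 11 weeks, 8 control mice with normal weightbearing and 8 mice whose hindlimbs had been unloaded for 7 days (HLU). The ends of the femur were cut off, the marrow was flushed out, and RNA of the remaining bone was sequenced as 1 library per mouse. Values are RPKM, reads scaled to the size of the library and the length of the gene. Levels can be compared between genes only as far as the gene lengths used are right.

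Megakaryocytes sit against the sinusoids of the marrow and release platelets into the blood through long extensions built of microtubules. Platelets carry alpha granules filled with chemokines and adhesive proteins, and receptors on their surface bind von Willebrand factor, collagen and fibrinogen where a vessel is damaged. Bone is one of the tissues in which both cell types are met, since platelets circulate through its vessels and megakaryocytes lie close to its inner surface.

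The tissue was cortical bone with other cells in it. Markers of osteoblasts and osteocytes summed to 759 to 1731 RPKM in control and to 1011 to 2148 RPKM in HLU mice, granulocyte markers to 18691 to 39691 and 13214 to 46531 RPKM, and erythroid markers to 3394 to 9339.6 and 1843 to 4918 RPKM. No marker tested of any of these lists was at 0 in any mouse. Library depth, recovered from the RPKM values themselves, was between 7067512 and 21363584 reads, a 3.02-fold range. With TruSeq libraries run 8 to a lane, the lane of each mouse is not given in the sources used here, so lane and group cannot be told apart.

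Pf4 and Ppbp lie beside each other. Ppbp is at chr5:90768518-90770063 and Pf4 at chr5:90772435-90773383, both on the plus strand of GRCm38, with 2371 bases between them. The other genes are on chromosomes of their own, with Itga2b at chr11:102453297-102470122 on the minus strand, Gp6 at chr7:4363965-4397744 on the minus strand, Gp1bb at chr16:18620317-18622403 on the minus strand, Vwf at chr6:125546774-125686679 on the plus strand, Treml1 at chr17:48359916-48367176 on the plus strand and Tubb1 at chr2:174450695-174457882 on the plus strand. The promoters of 4 of them follow, since the neighbours Pf4 and Ppbp covaried weakly between mice while Pf4 went with Itga2b and Ppbp with Gp6. They run from 250 bases before to 50 bases after the start of the gene in RefSeq on GRCm38.p6, at chr5:90772185-90772484 (plus) for Pf4, chr11:102469834-102470133 (minus) for Itga2b, chr5:90768268-90768567 (plus) for Ppbp and chr7:4397695-4397994 (minus) for Gp6. Capitals mark GATA motifs (the letters AGATAA, the letters AGATAG, the letters TGATAA or the letters TGATAG) and ETS motifs (the letters AGGAAG or the letters CGGAAG) on either strand.
Pf4: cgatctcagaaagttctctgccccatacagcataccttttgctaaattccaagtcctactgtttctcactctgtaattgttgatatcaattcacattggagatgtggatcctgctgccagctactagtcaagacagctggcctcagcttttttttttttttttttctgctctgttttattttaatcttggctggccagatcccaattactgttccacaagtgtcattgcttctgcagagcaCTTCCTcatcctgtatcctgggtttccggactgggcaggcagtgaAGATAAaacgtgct
Itga2b: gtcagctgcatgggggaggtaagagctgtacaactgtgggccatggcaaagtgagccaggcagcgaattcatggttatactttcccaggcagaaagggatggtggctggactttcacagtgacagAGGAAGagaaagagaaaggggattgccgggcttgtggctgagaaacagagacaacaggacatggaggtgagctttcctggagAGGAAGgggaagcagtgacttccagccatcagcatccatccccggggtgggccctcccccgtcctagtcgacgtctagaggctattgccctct
Ppbp: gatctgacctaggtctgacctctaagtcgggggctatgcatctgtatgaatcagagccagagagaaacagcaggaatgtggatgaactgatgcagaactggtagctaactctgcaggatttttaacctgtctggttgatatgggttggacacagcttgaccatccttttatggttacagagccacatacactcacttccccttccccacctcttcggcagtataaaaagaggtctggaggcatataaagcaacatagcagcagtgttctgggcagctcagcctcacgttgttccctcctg
Gp6: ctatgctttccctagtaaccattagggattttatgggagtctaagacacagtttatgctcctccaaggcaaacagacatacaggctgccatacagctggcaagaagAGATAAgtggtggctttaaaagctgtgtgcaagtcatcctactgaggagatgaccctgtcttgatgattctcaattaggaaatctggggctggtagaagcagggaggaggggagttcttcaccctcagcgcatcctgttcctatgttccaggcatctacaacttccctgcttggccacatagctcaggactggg

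GATA and ETS factors are the main classes of transcription factor of the megakaryocyte lineage. Pf4 held 1 GATA and 1 ETS motif, Itga2b 2 ETS motifs, Gp6 1 GATA motif, and Ppbp none of either. Over the 7 genes with a promoter in the table, 3 held a GATA motif and 4 an ETS motif. Of all 32851 promoters of the same length, 29.8% held a GATA motif and 46.5% an ETS motif. A match is a run of letters and was not tested as a binding site.

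Levels spanned a wide range. Over the 16 mice the mean was 895 RPKM for Ppbp, 146 RPKM for Pf4, 61.2 RPKM for Tubb1, 28.6 RPKM for Treml1, 14.1 RPKM for Itga2b, 13.3 RPKM for Gp6, 10.4 RPKM for Gp1bb and 3.596 RPKM for Vwf. Each gene was higher than the next in that order in all 16 mice, except that Itga2b was above Gp6 in 9 of 16 and Gp6 above Gp1bb in 12 of 16. In an exact paired sign-flip test (two-sided, log2 RPKM), the other neighbours each gave p = 3.05e-05, the smallest it can give (adjusted p = 4.27e-05 over 7 pairs). Gp6 and Gp1bb differed with p = 0.0225 (adjusted p = 0.0262) in the same exact test. Itga2b and Gp6 did not differ beyond their spread (exact p = 0.977). The order rests on the gene lengths implied by the values, 21395 bases for Vwf and 8117 for Itga2b against 1433 for Gp6. Vwf had 489 to 2235 reads per mouse and Gp6 125 to 521, though Vwf was lower in RPKM. How far the lengths shaped the order was not tested.

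Comparing the groups asks whether unloading went with a difference in these transcripts. All 8 genes were lower on average in HLU than in control bone. A gene was called at 1.2-fold or more with an unadjusted limma p under 0.05, and this rule was met by 5 of 8 (Pf4, Ppbp, Gp6, Treml1 and Tubb1), all lower in HLU, and by none in the other direction. Among all features tested, 4.76% were lower and 1.11% higher by the same rule. None of the 8 genes passed an adjusted p of 0.1, nor did any feature (0% of 16973), while 1049 features had an unadjusted p under 0.05. The median log2 fold change (HLU minus control) of the 8 genes was -0.64, against -0.10 over all features, of which 67.9% were below 0. After median-of-ratios rescaling of the libraries, which moved the median of all features to -0.02, the genes' median was -0.56 and 3 of 8 (Pf4, Ppbp and Gp6) met the rule. Whether the lower RPKM values came with fewer cells or with less RNA per cell cannot be told apart in bulk RNA. RPKM also does not correct for the composition of the library.

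**Figure D1:**
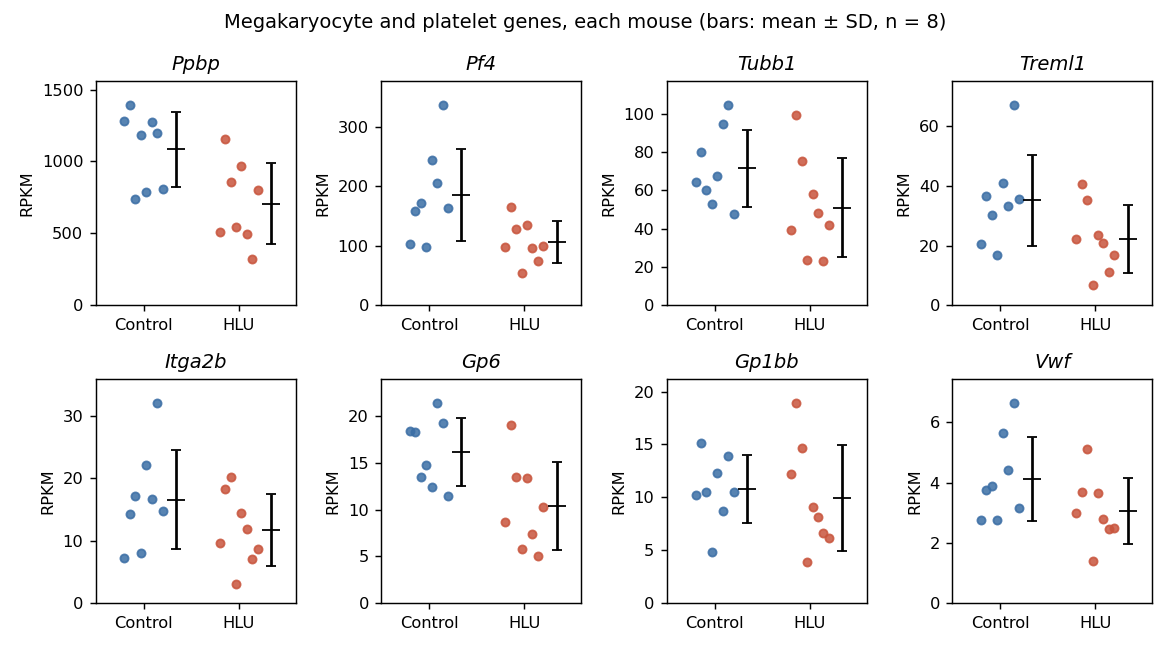
RPKM of each gene in each mouse, with control mice in blue and HLU mice in red, spread sideways in order of mouse number, and the mean ± SD of 8 mice in black beside each group. The y axes are linear, start at 0 and differ between genes. In each panel the groups overlap, and for Pf4 and Ppbp every HLU mouse lies below the control median (168 and 1193 RPKM).

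The chemokines stored in alpha granules were the most abundant of the genes. Ppbp, the precursor of a platelet chemokine that attracts neutrophils, was 742 RPKM in the lowest control mouse, 1193 at the median and 1392 in the highest. In HLU mice it was 320, 676 and 1154 RPKM. All 8 HLU mice were below the control median, and 5 control mice were above every HLU mouse. Its mean was 1084 ± 260 RPKM in control and 707 ± 282 RPKM in HLU (SD, n = 8), for which the log2 fold change was -0.68 (SE 0.25, 1.61-fold lower). Limma gave p = 0.0129 (adjusted p = 0.744), and the exact permutation test over the 12870 splits of the mice gave p = 0.0177. Between 6042 and 27279 reads lay behind each value, so counting error was small.

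Pf4, platelet factor 4, a chemokine that binds heparin, was 97.0 RPKM in the lowest, 168 in the median and 336 in the highest control mouse. In HLU mice it was 54.4, 98.8 and 166 RPKM, so that again all 8 lay below the control median and 4 control mice lay above every HLU mouse. The mean was 185 ± 78.0 RPKM in control and 106 ± 35.3 RPKM in HLU (SD, n = 8), a log2 fold change of -0.76 (SE 0.26, 1.70-fold lower). This difference gave p = 0.00936 with limma (adjusted p = 0.744) and p = 0.0157 in the exact permutation test. The ratio of Ppbp to Pf4, looked at after their values were seen, had a median of 5.55 in control (3.23 to 12.4) and of 6.83 in HLU mice (4.30 to 10.1). The difference of 0.08 in its log2 value was within the spread (exact permutation p = 0.794).

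Of the surface receptors, the one for collagen differed most clearly. Gp6, which signals when platelets touch collagen, was 11.4 RPKM in the lowest, 16.6 in the median and 21.5 in the highest control mouse, and 4.99, 9.49 and 19.1 RPKM in HLU mice. In all, 5 HLU mice were below every control mouse and 7 of 8 were below the control median. The mean was 16.2 ± 3.66 RPKM in control and 10.4 ± 4.72 RPKM in HLU (SD, n = 8), a log2 fold change of -0.73 (SE 0.24). Its p was 0.00795 with limma (adjusted p = 0.744), the lowest of the 8 genes, and 0.0141 in the exact permutation test, with 125 to 521 reads per mouse.

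Treml1, a receptor of the alpha granule membrane that reaches the surface when platelets are activated, spread more widely. It was 16.9, 34.4 and 67.2 RPKM in the lowest, median and highest control mouse, and 6.71, 21.4 and 40.7 RPKM in HLU mice. Of the HLU mice, 6 of 8 were below the control median, and the highest HLU mouse was above it. With means of 35.2 ± 15.3 and 22.1 ± 11.4 RPKM (SD, n = 8), its log2 fold change of -0.75 (SE 0.34) was close to that of Pf4 with a larger error (limma p = 0.0412, adjusted p = 0.744, exact permutation p = 0.0578).

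Itga2b, the alpha chain of the fibrinogen receptor and the classic surface marker of megakaryocytes, was 7.27, 15.7 and 32.1 RPKM in the lowest, median and highest control mouse and 3.06, 10.7 and 20.2 RPKM in HLU mice. The groups overlapped over most of their ranges. Its means of 16.5 ± 7.94 and 11.6 ± 5.77 RPKM (SD, n = 8) gave a log2 fold change of -0.55 (SE 0.36) that did not pass the threshold (limma p = 0.147, exact permutation p = 0.183).

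Gp1bb, the beta chain of the receptor for von Willebrand factor, differed least. It was 4.82, 10.5 and 15.2 RPKM in the lowest, median and highest control mouse and 3.83, 8.62 and 18.9 RPKM in HLU mice, and the highest value of all was that of an HLU mouse. Its log2 fold change was -0.20 (SE 0.29, limma p = 0.498, exact permutation p = 0.527). Exons of Gp1bb overlap those of Sept5 on the same strand, so reads of both can be counted for either. The feature that carries a date in place of the septin symbol was 20.7 ± 5.21 RPKM in control and 24.2 ± 10.8 RPKM in HLU (SD, n = 8) and followed Gp1bb between mice (r = 0.944 across 16 mice), so the value of Gp1bb is uncertain as a measure of that gene alone.

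Vwf, von Willebrand factor itself, is made by megakaryocytes and by the endothelium of vessels. It was 2.75, 3.80 and 6.65 RPKM in the lowest, median and highest control mouse and 1.40, 2.89 and 5.10 RPKM in HLU mice, with 7 of 8 HLU mice below the control median. The log2 fold change of -0.43 (SE 0.24) did not pass the threshold (limma p = 0.0864, exact permutation p = 0.103). The ratio of Vwf to Itga2b had a median of 0.259 in control (0.207 to 0.378) and 0.272 in HLU mice (0.202 to 0.457), and its log2 value did not differ beyond the spread (difference 0.12, exact permutation p = 0.488).

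Tubb1, the beta tubulin of the microtubule ring of platelets, was 47.5, 66.0 and 104 RPKM in the lowest, median and highest control mouse and 22.9, 44.9 and 99.4 RPKM in HLU mice. In all, 4 HLU mice were below every control mouse, while the highest HLU mouse was near the top of the control range. Its means of 71.5 ± 20.1 and 51.0 ± 26.0 RPKM (SD, n = 8) gave a log2 fold change of -0.60 (SE 0.28, limma p = 0.0447, adjusted p = 0.744, exact permutation p = 0.0636).

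**Figure D2:**
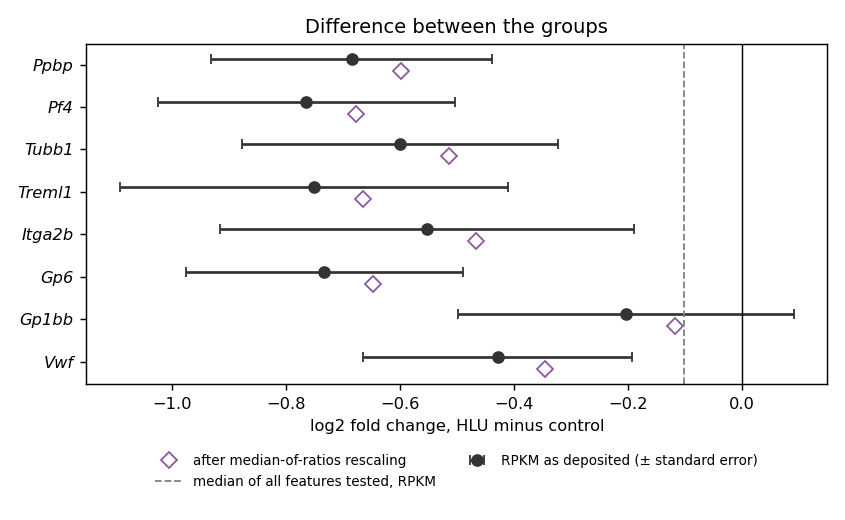
Log2 fold change of each gene, HLU minus control, on the x axis, from the RPKM as deposited (filled, ± standard error, n = 8 mice a group) and after median-of-ratios rescaling (open diamonds). The solid line is at 0 and the dashed line at the median of all features tested (-0.10). All 8 genes lie below 0 under both, from -0.20 for Gp1bb to -0.76 for Pf4 as deposited.

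The calls of Ppbp, Gp6 and Pf4 were kept when any single mouse was left out. Those of Treml1 and Tubb1 were not. The call of Treml1 was lost without Control 2, 3, 5, 6, 7 or 8 or HLU 4, 6, 7 or 8, and that of Tubb1 without Control 1, 2, 5, 6 or 7 or HLU 1, 4, 6, 7 or 8, so that between 3 and 6 of the 8 genes were called. The count was 3 without Control 2, 5, 6 or 7 or HLU 4, 6, 7 or 8, and 6 without HLU 3, where Vwf was called as well. The extremes came from few mice. Control 7 was the highest control mouse for 5 of 8 genes, HLU 2 the highest HLU mouse for 6, and HLU 4 and HLU 7 the lowest HLU mice for 5 and 3.

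Covariation between mice asks which of these transcripts went up and down together. It was measured on log2 RPKM centred on each group's mean, over 16 mice, with permutations within groups and adjustment over 92 relations. All 28 pairs of genes were positively correlated, with a median Pearson's r of 0.764 (0.294 to 0.958), and 20 had an adjusted p under 0.05. The same share was not taken over pairs of other features. Of 16965 other features tested, 4.82% had r over 0.8 with the mean of the genes other than Vwf. The pairs fell along a pattern with Pf4, Vwf, Itga2b and Treml1 at one end and Ppbp and Gp6 at the other. This split was seen mainly in controls. There Gp6 had r = 0.10 with Pf4, 0.00078 with Itga2b and 0.11 with Treml1. In HLU mice the same pairs had r = 0.93, 0.80 and 0.87, and the difference between groups was not tested. Correlations across mice do not show that transcripts come from the same cell.

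**Figure D3:**
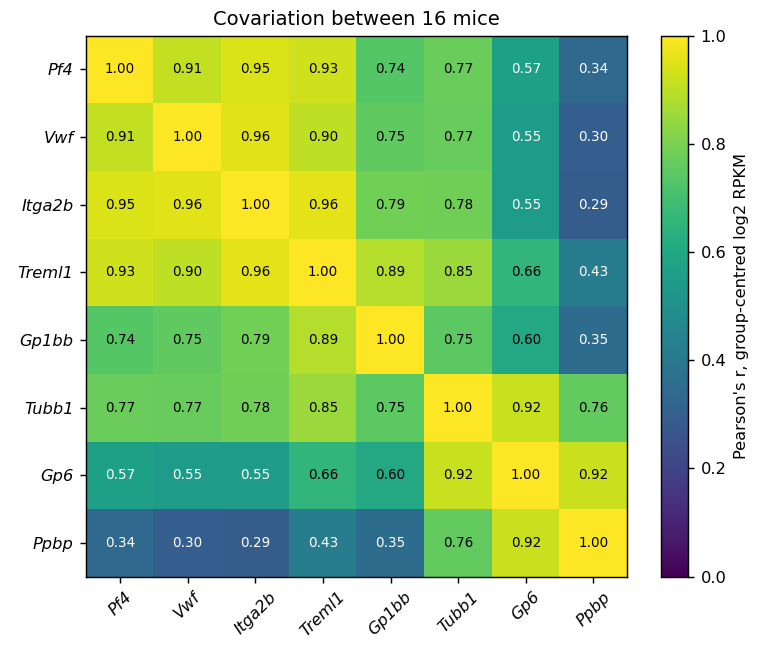
Pearson's r of each pair of genes over 16 mice, from log2 RPKM centred on the mean of each group. Colour runs from 0 (dark) to 1 (bright), and the value stands in each cell. Pf4, Vwf, Itga2b and Treml1 correlate at 0.90 to 0.96 with each other, and Ppbp correlates with Gp6 at 0.92 but with Pf4 at 0.34.

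Within the group of Pf4, Vwf, Itga2b and Treml1, the 6 pairs had r between 0.903 and 0.958. Itga2b and Treml1 were the closest pair (r = 0.958, permutation p = 1e-05, the smallest the permutations can give, rho = 0.888, permutation p = 0.0001). Itga2b and Pf4 had r = 0.948 (permutation p = 1e-05, rho = 0.909, permutation p = 1e-05), within controls 0.985 and within HLU mice 0.944. These genes differ in role, covering a granule chemokine, an adhesive protein and surface receptors.

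Ppbp went with Gp6 (r = 0.920, permutation p = 2e-05, rho = 0.856, permutation p = 0.00012), at 0.866 within controls and 0.939 within HLU mice. Gp6 also went with Tubb1 (r = 0.916, permutation p = 2e-05, rho = 0.862, permutation p = 0.00024). Tubb1 was related to both ends, with r = 0.761 to Ppbp and r = 0.773 to Pf4. Leaving out the 2 mice most distant from the median in Ppbp left r at 0.908 for Ppbp with Gp6. Leaving out the 2 most distant in Pf4 left r at 0.939 for Pf4 with Itga2b.

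The neighbours Ppbp and Pf4 were related weakly (r = 0.341, permutation p = 0.196, adjusted p = 0.259, rho = 0.279, permutation p = 0.299). Within controls r was -0.21 and within HLU mice 0.77, and this difference was not tested. Ppbp was likewise weakly related to Itga2b (r = 0.294, permutation p = 0.318) and to Vwf (r = 0.298, permutation p = 0.304). These were -0.30 and -0.13 within controls and 0.59 and 0.53 within HLU mice. How these relations stand to the motifs in the promoters was not tested.

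Vwf was set against the megakaryocyte gene Itga2b and against endothelial markers. Its r with Itga2b was 0.956 (permutation p = 1e-05, rho = 0.924, permutation p = 1e-05), and 0.929 once the 2 mice most distant from the median in Vwf were left out. With the mean of 14 endothelial markers r was 0.452 (permutation p = 0.0879, adjusted p = 0.133, rho = 0.515, permutation p = 0.0516), and 0.181 with the 2 mice most distant in the endothelial score left out. The mice left out were thus chosen by a different measure in each case. The difference between these correlations was not tested. Itga2b itself had r = 0.505 with the endothelial score (permutation p = 0.0529, adjusted p = 0.0854). Within controls the endothelial score had r = 0.661 with Vwf and 0.812 with Itga2b, and within HLU mice 0.261 and 0.240. Which cells the Vwf RNA came from was not tested. As deposited, the endothelial markers themselves did not differ between the groups beyond the spread, with 0 of 14 called in either direction. Their median log2 fold change was 0.07, with sums of 86.0 to 136 RPKM in control and 94.9 to 144 RPKM in HLU mice. After median-of-ratios rescaling that median was 0.16, and Cdh5 met the rule as higher in HLU (log2 fold change 0.29). Among all 16973 features, 376 were called higher after that rescaling.

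**Figure D4:**
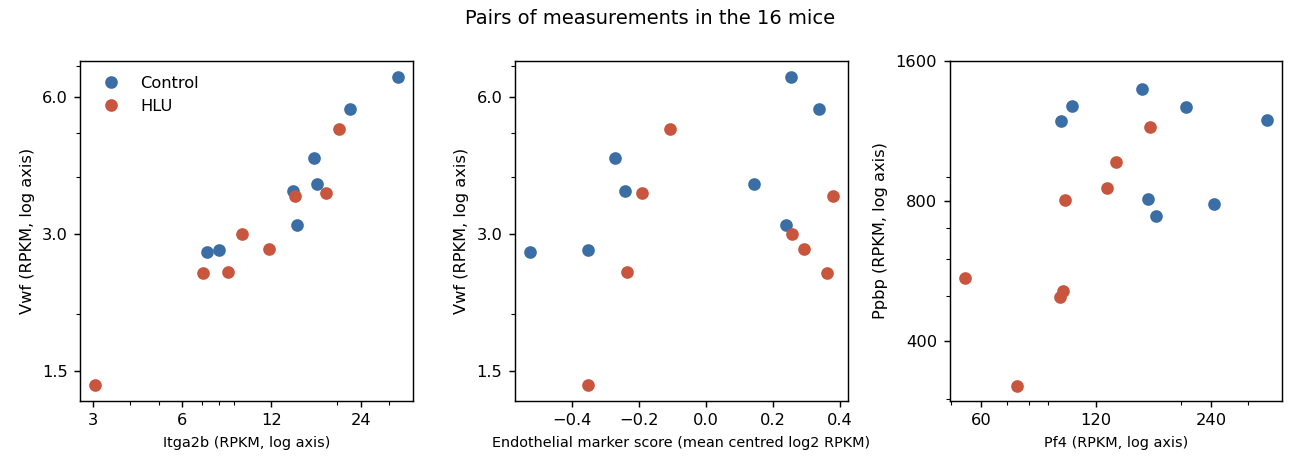
Each point is 1 of 16 mice, with control in blue and HLU in red. The left panel plots Vwf against Itga2b and the right panel Ppbp against Pf4 (RPKM, log axes), and the middle panel plots Vwf (log axis) against the mean centred log2 RPKM of endothelial markers. Vwf follows Itga2b (r = 0.956) at a higher r than the endothelial score (r = 0.452, difference not tested), and Ppbp and Pf4 are loosely related (r = 0.341). Itga2b has r = 0.505 with the endothelial score.

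Markers of other blood cells were read in the same mice. Of 16 erythroid markers tested, 6 were called lower in HLU (Hbb-b1, Hbb-b2, Klf1, Rhag, Rhd and Kel) and 0 higher, against 4.76% and 1.11% of all features, with a median log2 fold change of -0.60. The exact permutation test gave p = 0.0191 for Hbb-b1 and 0.0496 for Hbb-b2. It gave 0.0511 for Klf1, 0.0636 for Rhag, 0.0542 for Rhd and 0.0617 for Kel. After median-of-ratios rescaling 4 of the 16 were called lower, without Rhag and Kel, and the median was -0.52. The mean erythroid score was 0.58 lower in HLU on the log2 scale (exact permutation p = 0.0639). Hbb-b1, a beta globin with near-identical copies, was 1271 ± 638 RPKM in control and 734 ± 306 RPKM in HLU (SD, n = 8). Klf1, a transcription factor of red cell formation, was 41.6 ± 14.0 and 27.8 ± 15.9 RPKM. Between mice, the erythroid score was related to Treml1 (r = 0.855, permutation p = 7e-05, rho = 0.718, permutation p = 0.00462), Pf4 (r = 0.824, permutation p = 0.00011, rho = 0.779, permutation p = 0.00072), Itga2b (r = 0.821), Tubb1 (r = 0.807), Vwf (r = 0.744), Gp6 (r = 0.673, adjusted p = 0.0267) and Gp1bb (r = 0.630, adjusted p = 0.0349), and had r = 0.527 with Ppbp (permutation p = 0.0601, adjusted p = 0.0954). With the 2 mice most distant in score left out, r was 0.776 for Treml1, 0.715 for Pf4 and 0.753 for Itga2b.

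The granulocyte score had its highest correlations with Ppbp and Gp6. Its r was 0.878 with Ppbp (permutation p = 8e-05, rho = 0.862, permutation p = 0.00017), 0.871 with Gp6 (permutation p = 0.00026, rho = 0.835, permutation p = 0.00086) and 0.784 with Tubb1. With the 2 mice most distant in score left out these were 0.770, 0.753 and 0.602. With Treml1 it was 0.579, with Gp1bb 0.539, with Itga2b 0.424, with Pf4 0.409 and with Vwf 0.375, none of which had an adjusted p under 0.05. For these genes, in that order, r was 0.05, 0.27, -0.23, -0.15 and -0.20 within controls. Within HLU mice it was 0.77, 0.63, 0.69, 0.78 and 0.63. For Ppbp, Gp6 and Tubb1 it was 0.84, 0.72 and 0.42 within controls and 0.90, 0.91 and 0.88 within HLU mice. Granulocyte markers did not differ between the groups beyond the spread (0 of 11 called, mean score 0.15 lower in HLU, exact permutation p = 0.528). Of the other lists, 1 of 10 B lymphocyte markers was called lower (Vpreb3), 0 of 10 macrophage markers were called, and 1 of 10 osteoblast and osteocyte markers was called higher (Mepe, 140 ± 75.1 RPKM in control and 226 ± 78.5 RPKM in HLU, SD, n = 8). The macrophage score also covaried with the genes, at r = 0.775 with Gp1bb (adjusted p = 0.00472), 0.753 with Treml1 (adjusted p = 0.00677), 0.719 with Tubb1, 0.715 with Gp6, 0.625 with Itga2b (adjusted p = 0.0343) and 0.586 with Vwf (adjusted p = 0.0492), by permutation. In that order r was 0.43, 0.27, 0.05, 0.06, 0.05 and -0.01 within controls. Within HLU mice it was 0.92, 0.96, 0.93, 0.91, 0.92 and 0.90. With the 2 mice most distant in score left out, r was 0.34 for Itga2b and 0.24 for Vwf. The B lymphocyte score was related to Ppbp (r = 0.657, permutation adjusted p = 0.021) and Gp6 (r = 0.614, permutation adjusted p = 0.0349). These were 0.19 and -0.05 within controls and 0.94 and 0.96 within HLU mice. The differences between the groups in these correlations were not tested. The osteoblast and osteocyte score was related inversely to Ppbp (r = -0.55, permutation adjusted p = 0.0421). Library depth was not clearly related to any of the 8 genes, with r from -0.36 for Ppbp to -0.07 for Vwf and adjusted p of 0.253 or more.

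With the erythroid and granulocyte scores as covariates, the genes parted. Ppbp remained lower in HLU with a log2 difference of -0.64 (SE 0.14, limma adjusted p = 0.0925), and Gp6 with an adjusted p of 0.114. In this fit 1749 of 16973 features were called lower and 1462 higher, and 98 and 55 of them passed the adjusted threshold. Calls of the genes here therefore stand against a larger share of all features than in the main fit. Pf4 was no longer called (-0.20, limma adjusted p = 0.468), nor were Treml1 (-0.08, limma adjusted p = 0.855) and Tubb1 (-0.22, limma adjusted p = 0.483). Itga2b, Gp1bb and Vwf turned to 0.23, 0.16 and 0.021, none of which was called. This fit removes any part of the difference that the genes share with those markers, whatever its source, and where the shared part comes from was not tested.

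The wider platelet programme was described by lists of other genes. Of 59 such genes, 50 were listed and tested. By the same rule 9 were lower in HLU and 0 higher, against 4.76% and 1.11% of all features. Their median log2 fold change was -0.34, and 46 of 50 were below 0, against 67.9% of all features. After median-of-ratios rescaling 4 of the 9 were called, among them Itgb3, F2rl3 and Tal1, and the median was -0.25. The count depended on single mice, at 3 without HLU 7, 5 without Control 6, Control 7, HLU 1 or HLU 6, 14 without HLU 3 and 22 without HLU 2.

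Among 8 other adhesion receptors and their partners, 3 were called lower, against 4.76% of all features. Itgb3, the beta chain that pairs with the product of Itga2b and that osteoclasts also carry, was 98.9 ± 14.5 RPKM in control and 73.8 ± 21.9 RPKM in HLU (SD, n = 8), a log2 fold change of -0.46 (SE 0.16, exact permutation p = 0.0171). Gp5, a further chain of the von Willebrand factor receptor, was 19.4 ± 3.95 and 14.5 ± 6.07 RPKM (exact permutation p = 0.0570). Selp, P-selectin of granules and of endothelium, was 5.71 ± 1.42 and 4.22 ± 1.24 RPKM (exact permutation p = 0.0398). The ligand-binding chain Gp1ba, which was not called, was 11.3 ± 2.17 and 9.35 ± 4.92 RPKM.

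Among 12 genes of platelet activation, 3 were called lower, against 4.76% of all features. These 3 were all receptors. F2rl2 and F2rl3, the thrombin receptors of mouse platelets, had log2 fold changes of -0.62 (SE 0.27, exact permutation p = 0.048) and -0.58 (SE 0.20, exact permutation p = 0.0152). P2ry1, a receptor for ADP, had one of -0.44 (SE 0.18, exact permutation p = 0.0375). All 12 were below 0, against 67.9% of all features, though most did not pass the test.

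Against 4.76% of all features called lower, granule contents and transcription factors each had 1 gene called. Of 10 genes of granules this was Rab27b, a small GTPase of granule release (-0.46, SE 0.19, exact permutation p = 0.0343). Of 9 transcription factors it was Tal1, which also acts in red cell precursors, with a log2 fold change of -0.73 (SE 0.26, exact permutation p = 0.0208). Gata1, shared by both lineages as well, was 35.1 ± 13.4 and 25.6 ± 12.5 RPKM and did not pass the test (exact permutation p = 0.134). None of 6 cytoskeletal genes was called, among them Myh9 and Flna.

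**Figure D5:**
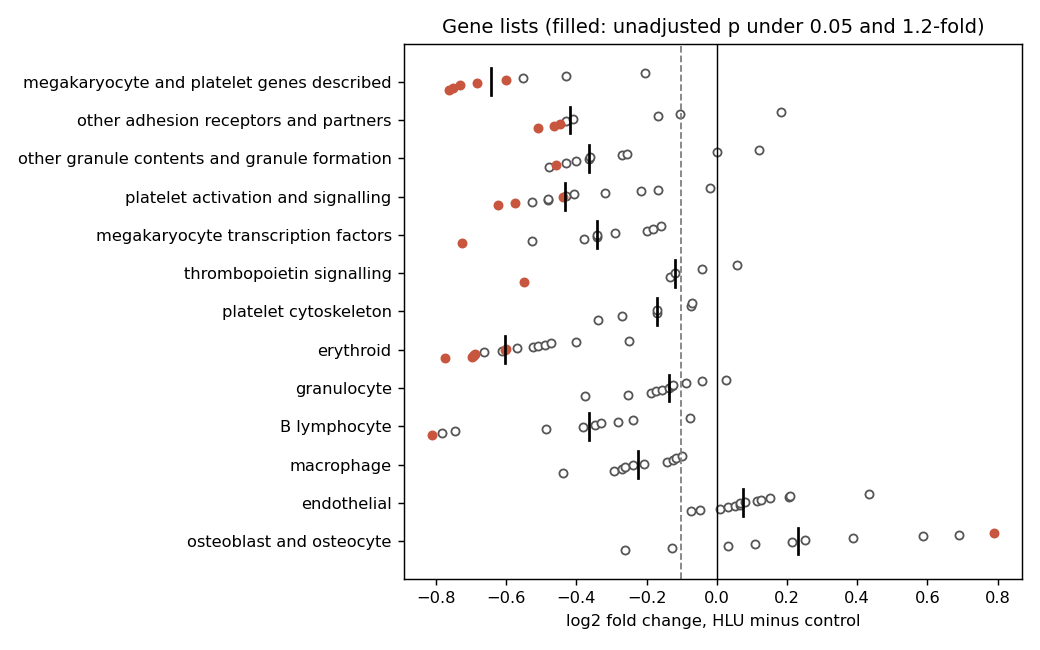
Log2 fold change, HLU minus control, of each tested gene by list, on the x axis. Filled points passed an unadjusted p under 0.05 and 1.2-fold in limma, open points did not, black bars are the list medians, and the dashed line is the median of all features (-0.10). The 8 megakaryocyte and platelet genes (median -0.64) and the erythroid markers (-0.60) lie furthest to the left, and the osteoblast and osteocyte markers (0.23) to the right.

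The genes most like the mean of the 7 genes other than Vwf between mice were Alox12 (r = 0.975 over 16 mice), Slx4 (0.969), Taf10 (0.966), Tubb5 (0.956), P2rx1 (0.953), Dnajb13 (0.952), Nrf1 (0.951), Ilk (0.949), Plekho2 (0.948) and Tmem234 (0.944). Alox12 and P2rx1 are on the list of platelet activation, and the other 8 are on none of the lists. These are the highest values among the features that averaged 2 RPKM or more and had a symbol listed once and not starting with a digit. The same limits held for the genes most like Vwf. Over all 16965 other features tested the median r was 0.151, and 4.82% were over 0.8. Vwf alone was most like Pprc1 (r = 0.964), Tln1 (0.957), Arap3 (0.943), Znfx1 (0.941) and Flna (0.940), and 5.02% of the other features had r over 0.8 with it.

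Each of the 8 genes was also set against the mean of the other 7. Treml1 was the closest (r = 0.951), and 0.0295% of the 16965 other features tested reached that value. Tubb1 (r = 0.925, 0.318%), Itga2b (0.886, 1.10%), Pf4 (0.879, 1.44%) and Vwf (0.872, 1.76%) came next, then Gp1bb (0.811, 4.34%) and Gp6 (0.763, 7.57%). Ppbp, the most abundant of them, was the least like the rest (r = 0.517), a value that 22.6% of other features reached.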

How the data were processed

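RNA of marrow-flushed femoral cortical bone was measured in 16 mice. The authors prepared TruSeq libraries, aligned reads with TopHat2 and deposited RPKM values per mouse; per the labels the build was mm9, and the counting tool and annotation are not given in the sources used here. RPKM corrects for gene length and library size, not for composition. Groups came from the sample titles. The genes and lists were chosen with earlier results of these data known, and support nothing by their choice.

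Features averaging 0.5 RPKM or more were kept. HLU was compared with control by limma 3.58.1 (R 4.3.3) on log2(RPKM + 0.1) with a variance trend, and Benjamini-Hochberg adjustment ran over all 16973 features. Fold changes are on that scale, which understates changes of low genes. Called genes had an unadjusted p under 0.05 and at least 1.2-fold; the adjusted threshold was 0.1. Python 3.11.15 with scipy 1.17.1 ran two-sided exact permutation tests (smallest p 0.000155) and 100000 permutations for correlations. A list's score is the mean of its genes' centred log2 values. The p-values measure the spread between mice. Whole reads were recovered for 16973 of 16973 features (within 0.02 reads), and limits from reads cover counting error only. On simulated data for HLU against control over 16973 features, limma recovered 126 of 200 genes changed 2-fold, with 18 false calls. Simulated features varied independently of each other, so these numbers do not cover the covariation between mice seen in the real data. Positions are from GENCODE M21 on GRCm38, whose lengths equal those implied by the files for 2913 of 14754 genes.

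Named genes are the members, genes of the lists past the unadjusted rule, the 10 features most like the members' mean, and the 5 most like Vwf. Features ranked by likeness had a symbol listed once and not starting with a digit. Other genes were named after their values were seen. The result of 1 gene of the lists is not reported here, though the counts include it.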

Additional observations from a re-analysis of the deposited data

How the results depend on the processing

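The numbers of called genes depended on the scaling, while all 8 genes stayed below 0 after median-of-ratios rescaling and quantile normalization. Calls lower in HLU, 808 features and 5 of the 8 genes, became 401 and 3 after median-of-ratios rescaling, 364 and 3 after quantile normalization, and 1749 and 2 with the erythroid and granulocyte scores as covariates. The 188 features called higher became 376, 460 and 1462, with 391 without a filter on low values and 106 with a minimum mean of 2 RPKM, where fewer features were tested. The share of calls that were higher was 18.9% as deposited, 48.4% after median-of-ratios rescaling and 55.8% after quantile normalization. Of the other megakaryocyte genes, 9 were lower as deposited, 4 after median-of-ratios rescaling, 5 after quantile normalization, and 16 lower and 4 higher with covariates. Features past the adjusted threshold numbered 1 without the filter, 1 without the variance trend and 153 with covariates. With covariates the log2 fold changes of Itga2b, Gp1bb and Vwf were 0.23, 0.16 and 0.021. The cause of these shifts was not tested.

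Leaving out 1 mouse at a time gave 471 (without HLU 7) to 1385 (without HLU 2) features lower, with 488 without HLU 1, 505 without Control 6 and 512 without Control 7. It gave 117 (without HLU 7) to 363 (without HLU 2) features higher and 310 without HLU 3, 3 to 6 of the 8 genes lower, 3 to 22 of the other genes lower, and 0 to 1 feature past the adjusted threshold. Without the 2 smallest libraries (Control 2 and HLU 5), a choice made after seeing the data, 3 of the 8 genes were lower and 108 features higher. Mice of the same number showed no consistent pairing: their deviations correlated at -0.17 to 0.51, with 3 of 8 over 0.1. These values cannot show that no mice were paired. With the replicate block, 840 features were lower and 199 higher, 5 of the 8 genes were lower, 7 other megakaryocyte genes were lower, and none passed the adjusted threshold. Depth limits Gp6 most, with 125 reads in its lowest mouse.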
